A study of Rattus norvegicus with 192 samples.

Results

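The genes described are the nuclear genes of the mitochondrial respiratory chain and ATP synthase that the rat array measured. A probe set is the group of short array probes that reads 1 transcript. Members were the probe sets whose platform annotation named a single gene, that gene being one of 22 listed subunit genes or having a symbol that starts with Nduf, Uqcr, Atp5 or Sdh. The rule reads the annotation and uses no measured value, though the set was proposed with earlier results of these data known. The rule found 77 genes, read by 87 probe sets, among 13437 named genes and 31042 tested probe sets. Of the listed genes, 19 were found, and Cox6c, Cycs and Ndufa10 have no probe set that meets the rule. The members are 66 subunits and 11 other genes that the prefixes catch. By complex these are 32 subunits and 6 assembly factors of complex I, 4 subunits and 4 assembly factors of complex II, 8 subunits of complex III, 7 of complex IV and 15 of ATP synthase, and the ATP synthase inhibitor Atp5if1. The tissue isoform pairs of cytochrome oxidase (the 4i, 6a, 7a and 8 subunits) are outside the set.

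Adult male Sprague-Dawley rats inhaled phosphine gas (PH3) by whole-body exposure at 660 ppm for 25 min, a product of 16500 ppm x min and 0.71 of the median lethal product. Control rats are labelled Air. Heart, lung, kidney, brain stem, olfactory bulb (Olfac Bulb in the labels) and blood were taken at 1, 3, 6 or 24 h after exposure, which gives 48 groups and 192 arrays from 59 rats. Each group holds 4 rats, except Air blood at 24 h with 3 and Air olfactory bulb at 1 h with 5. All rats were killed under ketamine and xylazine and bled out, and blood was drawn from the heart. Different tissues often came from the same rat, but no rat was in both exposures, and each rat gives 1 time. The arrays read whole tissue, so fewer cells of a type and less RNA per cell cannot be told apart. Values are the deposited log2 levels, and each difference is PH3 minus Air of the same tissue and time on that scale, where 1 unit is 2-fold.

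Complexes I and II pass electrons from NADH and succinate to ubiquinone, complex III passes them on to cytochrome c, and complex IV, cytochrome c oxidase, hands them to oxygen. Complexes I, III and IV pump protons across the inner mitochondrial membrane, and ATP synthase uses the returning protons to make ATP. Heart muscle and kidney tubules depend heavily on this pathway, while mature red cells have no mitochondria. Phosphine is a fumigant gas known to inhibit cytochrome c oxidase and to impair respiration. All members described here are encoded in the nucleus and imported into the mitochondrion. The array measures their messenger RNA, not the amount or activity of the complexes.

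The labels name each array's tissue, and the markers named next followed the label. In the Air arrays the heart myosin gene Myh6 averaged 13.11 in heart, the kidney gene Umod 12.66 in kidney, the surfactant gene Sftpc 13.60 in lung, the red cell gene Alas2 13.29 in blood, and the neuronal gene Snap25 12.69 in brain stem and olfactory bulb alike. Not all listed markers did. The kidney marker Slc34a1 had its lowest mean in kidney (5.62) and its highest in blood (7.35). The astrocyte marker Aldh1l1 read higher in kidney (10.37) than in brain stem (8.55). Lung arrays also carried Myh6 at 9.85 on average. The brown fat gene Ucp1 averaged 7.85 in lung, 7.28 in kidney and 7.14 in heart, so it was not particular to lung. The 2 most alike arrays had a correlation of 0.9957, so no pair holds the same values. Nothing in the labels marks a batch, and their number, 31 to 33 arrays a tissue, limits the precision.

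In Air rats the members formed 1 broad tissue order: heart first, then kidney, then both brain regions, then lung and blood. Levels of 77 of 77 members differed between the 6 tissues in limma's F test at an adjusted p under 0.05, but 99.7% of all probe sets did too, so the direction carries the description. Heart had the highest mean for 70 members, kidney for 3, brain stem for 2, and blood and lung for 1 each. Blood had the lowest mean for 56, lung for 20 and olfactory bulb for 1. With each array's median level subtracted, heart led for 72 and blood was lowest for 52. Every count of highest and lowest tissues compares a gene only with its own probe set in other tissues.

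**Figure D1:**
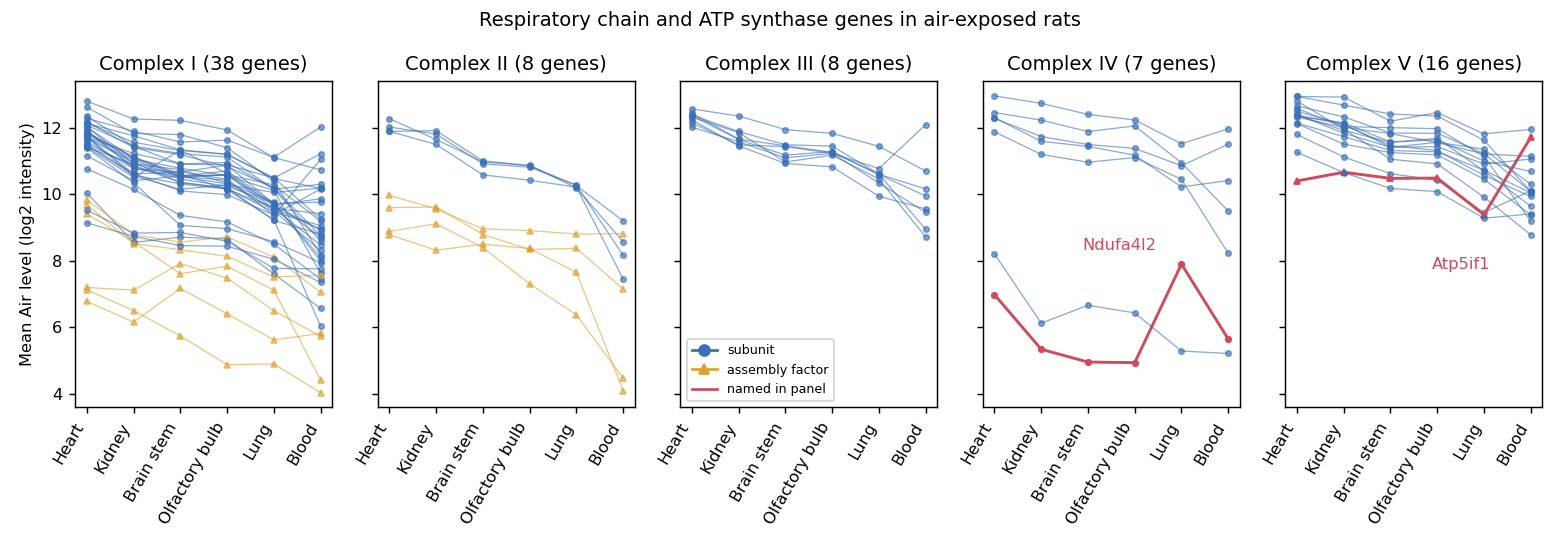
Mean log2 level of each member in Air rats (y axis) by tissue (x axis), 1 panel per complex; a line joins the 6 tissue means of 1 gene, with subunits as circles and other members as triangles. Lines fall from heart to lung and blood for most of the 77 genes, while Ndufa4l2 peaks in lung at 7.90 and Atp5if1 in blood at 11.71, both in red; only the course of a line can be read, since the height of different probe sets cannot be compared.

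Against kidney, 71 members were higher in heart and 2 lower, where 34.8% of all probe sets were higher and 30.6% lower. The median member difference was 0.62, and 0.73 with array medians subtracted, where 73 were higher and 1 lower. Against lung, heart was higher for 76 members and lower for 1 (all probe sets, 37.4% and 37%), with a median of 1.72. Against brain stem, heart was higher for 73 and lower for 2 (45.9% and 32.7%), with a median of 0.98. Blood was lower than heart for 75 members and higher for 1 (38.7% and 52.1%), with a median of -2.56. Brain stem and olfactory bulb were the closest pair, with 34 members higher in brain stem, 10 lower and 33 not called (25.2% and 25%), and a median of 0.11.

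The complexes did not share 1 size of difference. Heart exceeded kidney by a median of 0.76 over the 32 complex I subunits, which carry the chain from NADH to ubiquinone, and by 0.68 over the 7 complex IV subunits. The median was 0.58 for complex III, 0.41 for ATP synthase subunits and 0.30 for the 4 subunits of complex II, the succinate dehydrogenase that also belongs to the citric acid cycle. Kidney exceeded brain stem by 0.90 for complex II subunits and by 0.29 for complex I subunits. These medians are descriptions, since differences between complexes were not tested. The 4 genes not called between heart and kidney were Atp5f1b, Ndufaf5, Sdhaf2 and Sdhc. Atp5f1b, the catalytic beta subunit of ATP synthase, differed by 0.02, and Sdhc, a membrane anchor of complex II, by -0.02.

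The width of the range between tissues varied among members. Among the 8 widest was Ndufs1, the iron-sulfur subunit that accepts electrons early in complex I, with 5.81, from 6.04 in blood to 11.85 in heart. Sdhd spanned 4.44, Ndufab1 4.43, Ndufa2 4.19 and Atp5mc1 4.02, each lowest in blood. The other 3 are the assembly factors Ndufaf4, Sdhaf4 and Sdhaf3, whose blood means of 4.42, 4.10 and 4.47 lie under the median probe set of the blood arrays (5.10). Whether those blood values are above background was not tested, so their measured ranges of 4.99, 4.68 and 4.64 may understate the difference and have no order. The narrowest ranges were those of Atp5f1b (1.12), Sdhaf1 (1.16), Ndufa1 (1.17) and Atp5mf (1.18). Blood was not low for all of them. It held the second highest level of Uqcrh (12.09), the hinge protein of complex III, and of the complex I subunits Ndufa1 (12.02) and Ndufa12 (11.05).

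Ndufa4 and Ndufa4l2 are paralogs, and the first is now counted as a subunit of complex IV. Ndufa4 followed the common order, with 12.46 in heart, 12.23 in kidney, 12.05 in olfactory bulb, 11.88 in brain stem, 10.94 in lung and 9.50 in blood. Ndufa4l2, known as a hypoxia-responsive gene that is also marked in smooth muscle and pericytes, was instead highest in lung at 7.90 ± 0.39 (SD, n = 16). Its level was 6.98 ± 0.37 (SD, n = 16) in heart, 5.65 ± 0.55 (SD, n = 15) in blood, 5.34 ± 0.21 (SD, n = 16) in kidney, 4.96 ± 0.26 (SD, n = 16) in brain stem and 4.94 ± 0.16 (SD, n = 17) in olfactory bulb. Each neighbouring pair of Ndufa4l2 differed in limma's test except the brain regions (adjusted p = 0.92). It was the only member whose highest tissue was lung.

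Atp5if1, the inhibitor that keeps ATP synthase from running backwards and hydrolysing ATP, was highest in blood at 11.71 ± 0.12 (SD, n = 15), against 10.66 in kidney, 10.48 in both brain regions, 10.40 in heart and 9.39 in lung. Brain stem minus heart was 0.08 for Atp5if1 (adjusted p = 0.156) and turned to -0.20, past the threshold, with array medians subtracted, so their order is not settled. Atp5mc1 and Atp5mc3 encode the same c-ring protein of ATP synthase. Atp5mc1 spanned 8.78 in blood to 12.80 in heart, and Atp5mc3 a narrower 10.08 to 12.94 in the same tissues.

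Of the 4 assembly factors of complex II, Sdhaf2 and Sdhaf3 had kidney and not heart as their highest tissue. These small proteins put the flavin cofactor and the iron-sulfur clusters into succinate dehydrogenase. Sdhaf2, the flavin insertion factor, read 9.62 in kidney and 9.60 in heart, a difference that did not pass the test. Sdhaf3 read 9.11 in kidney, 8.88 in heart and 4.47 in blood, and Sdhaf4 read 8.78 in heart, 8.50 in brain stem, 8.32 in kidney and 4.10 in blood. Among complex I assembly factors, Ndufaf5 and Ndufaf7 were highest in brain stem, at 7.92 and 7.17.

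At least 1 of 3 short motifs was found in 31 of 72 member promoters, and the sequences here show some of these. A promoter here is 250 bases before to 50 bases after the RefSeq start in the assembly GRCr8, and 72 of the 77 members matched one. Searched on both strands were the NRF1 motif, the YY1 motif and the ETS motif ACCGGAAG, named for transcription factors linked to mitochondrial genes. The letters matched are in capitals in the sequences, and positions count the start as 1 with no position 0. The NRF1 motif was in 15 member promoters (20.8%), against 4.25% of 33469 promoters of the same length and 8.53% of 11088 whose gene is on the array. The ETS motif was in 9 (12.5%, against 2.49% and 4.24%) and the YY1 motif in 10 (13.9%, against 0.980% and 2.19%). The 31 promoters with a motif are 43.1%, against 7.32% and 13.9%, and no matches of different motifs overlapped. Of the 10 YY1 matches, 8 lay in the 50 bases after the start, while the median first base was -25 for ETS and -52.5 for NRF1. A match is a description and not a bound site.
Ndufs6 promoter, with an NRF1 match at -26 and a YY1 match at 24 from the start in capitals (chr1:31797150-31797449, plus strand): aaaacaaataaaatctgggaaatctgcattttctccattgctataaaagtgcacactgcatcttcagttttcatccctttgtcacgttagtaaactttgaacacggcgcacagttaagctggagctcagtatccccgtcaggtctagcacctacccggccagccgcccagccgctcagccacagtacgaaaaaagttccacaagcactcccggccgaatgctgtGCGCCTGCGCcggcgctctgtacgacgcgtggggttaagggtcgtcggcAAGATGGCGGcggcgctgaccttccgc
Ndufs8 promoter, the member called in lung, with an ETS match at -12 in capitals (chr1:210573649-210573948, minus strand): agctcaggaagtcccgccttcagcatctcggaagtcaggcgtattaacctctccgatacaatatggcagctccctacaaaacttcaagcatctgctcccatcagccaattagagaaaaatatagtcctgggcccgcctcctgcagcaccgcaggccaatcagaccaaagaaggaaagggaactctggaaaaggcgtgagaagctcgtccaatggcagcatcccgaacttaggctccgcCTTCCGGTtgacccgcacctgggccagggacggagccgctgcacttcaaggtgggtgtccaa
Sdhaf2 promoter, the member called in kidney, with none of the 3 motifs (chr1:216592619-216592918, minus strand): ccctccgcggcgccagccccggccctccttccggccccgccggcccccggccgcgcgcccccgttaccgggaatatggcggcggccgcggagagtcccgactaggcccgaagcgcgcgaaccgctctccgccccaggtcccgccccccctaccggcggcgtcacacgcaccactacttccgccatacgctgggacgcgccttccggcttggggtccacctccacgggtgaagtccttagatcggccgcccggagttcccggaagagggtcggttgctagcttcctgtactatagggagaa
Ndufa4l2 promoter, the member highest in lung, with none of the 3 motifs (chr7:65241919-65242218, plus strand): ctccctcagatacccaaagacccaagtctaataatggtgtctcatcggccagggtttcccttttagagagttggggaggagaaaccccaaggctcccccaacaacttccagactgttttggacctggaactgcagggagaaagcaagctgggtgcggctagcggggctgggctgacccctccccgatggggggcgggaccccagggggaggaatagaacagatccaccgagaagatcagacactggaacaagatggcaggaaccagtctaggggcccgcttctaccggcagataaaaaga
Ndufs6 shows the arrangement with a pair of motifs around the start, NRF1 before it and YY1 after it, and Uqcrc1 also holds both motifs in that order. No match says only that those letters are not in the window.

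After phosphine the members stayed close to the Air levels. Of 1848 differences (77 members in 24 comparisons of tissue and time), 2 passed limma's test at an adjusted p under 0.05: Sdhaf2 was lower in kidney at 1 h and Ndufs8 higher in lung at 3 h. In kidney at 1 h 2.35% of all probe sets passed and in lung at 3 h 9.89%, so 1 member of 77 is below the background in both. The other 22 comparisons called 0 members (0 to 21 at an unadjusted p under 0.05), against 0% to 4.24% of all probe sets, the highest at 1 h in lung. Of these, heart at 1 h had 0.915% of probe sets called, brain stem at 1 h 0.306% and kidney at 3 h 0.303%. Brain stem at 3 h and kidney at 6 h had 0.0161%, heart at 3 and 24 h 0.00644%, and brain stem at 24 h and olfactory bulb at 1 h 0.00322%. The rest had 0%.

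Outside blood the data bound most members tightly. Of 1540 differences in the 5 solid tissues, 1502 had a 95% confidence interval within 1.5-fold of no difference and 1536 within 2-fold. The 4 wider than that were Sdhaf3 in heart at 1 h, Ndufa4l2 in heart at 3 h, and Cox5a in heart at 24 h and in lung at 6 h. In blood 116 of 308 intervals lay within 1.5-fold, since the median standard error there was 0.25, against 0.067 in brain stem and 0.117 in lung. Blood also gave 26 of the 28 differences larger than 0.5 in size. The members' median difference lay between -0.11 and 0.08 in every tissue and time.

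**Figure D2:**
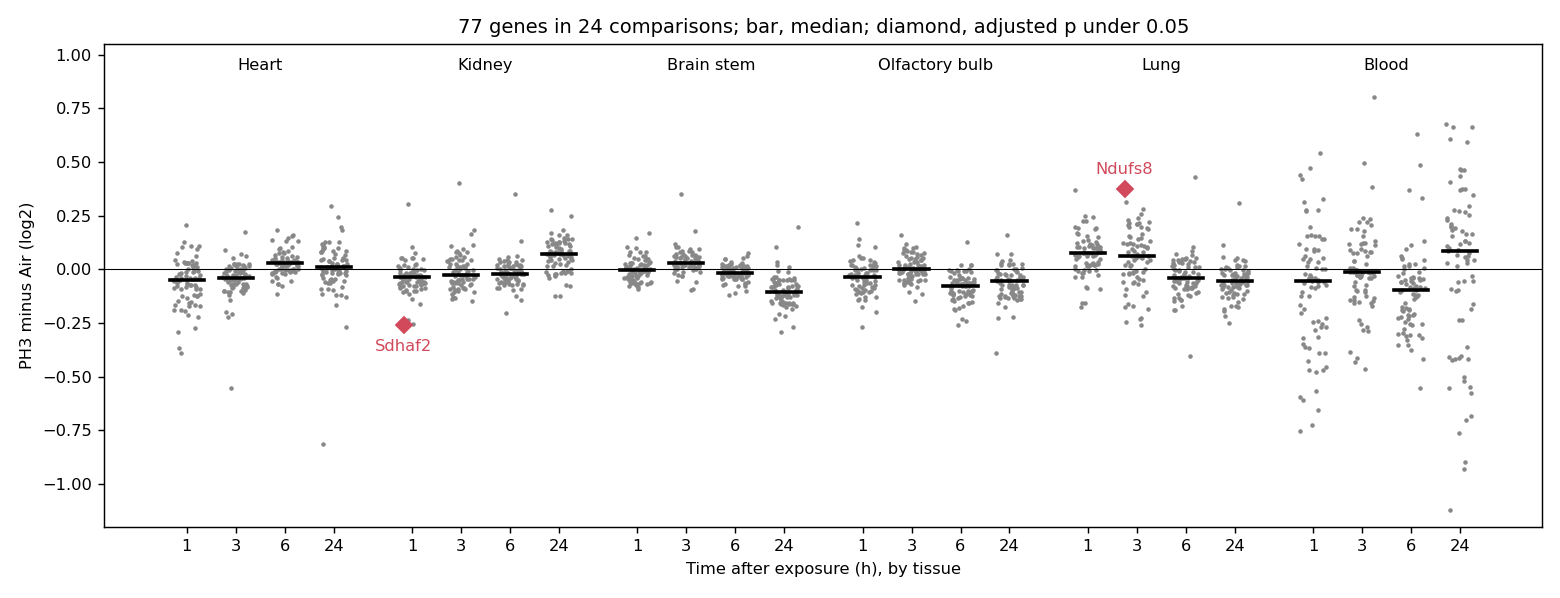
PH3 minus Air on the log2 scale (y axis) for the 77 members by tissue and hours after exposure (x axis); a dot is 1 gene, a bar the median of the 77 and a diamond a gene with an adjusted p under 0.05. Medians lie between -0.11 and 0.08, blood is widest, and the diamonds are Sdhaf2 in kidney at 1 h and Ndufs8 in lung at 3 h.

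In kidney at 1 h Sdhaf2, which inserts the flavin cofactor into complex II, was lower in PH3 rats, and a pair of further assembly factors of the complex had differences near that size that did not pass. Sdhaf2 read 9.56, 9.57, 9.73 and 9.74 in the Air rats and 9.25, 9.41, 9.44 and 9.45 in the PH3 rats. All PH3 arrays lay below all Air arrays, a difference of -0.26 ± 0.067 (SE, n = 4 and 4, limma adjusted p = 0.032). Sdhaf4, a factor that stabilises the flavoprotein subunit, read 8.34, 8.34, 8.34 and 8.37 against 8.04, 8.07, 8.09 and 8.17. It had the same difference, -0.26 ± 0.085 (SE, n = 4 and 4), again with no overlap, but its adjusted p of 0.129 missed the threshold. Sdhaf3 read 9.02 to 9.17 in Air and 8.62 to 9.02 in PH3 rats, so its groups overlapped (-0.24, adjusted p = 0.22). Sdhaf1, which helps insert iron-sulfur clusters, showed no such shift, with 9.49 to 9.93 in Air and 9.56 to 9.63 in PH3 rats.

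The 4 subunits of the enzyme had differences from -0.06 for Sdhd to -0.02 for Sdhb, and none passed the test. Ndufb7 and Ndufs1 of complex I also had no overlap, with differences of -0.12 and -0.06, which makes 4 members with all PH3 arrays below Air and 0 above, where 2.63% of all probe sets lay below. At 3 h Sdhaf2 was again below Air without overlap, by -0.13 (adjusted p = 0.544). The call for Sdhaf2 at 1 h depended on the fit. It was lost when only that time's arrays were fitted (adjusted p = 0.318) and with all tissues in 1 fit and the rat as a replicate block (adjusted p rounds to 1), and leaving out any of the Air rats Rat352 and Rat354 or the PH3 rats Rat343, Rat350 and Rat357 gave an adjusted p of 0.0546 to 0.149. Red cell markers were higher in the same PH3 kidneys: 5 of 5 had positive differences, with Alas2 higher by 1.38 (adjusted p = 0.0295) and Ahsp by 0.82 (adjusted p = 0.0374), and the skeletal muscle gene Acta1 was higher by 0.67 (adjusted p = 0.0387). The red cell mean level was 4.67 to 5.11 in Air and 5.14 to 5.65 in PH3 kidneys, and the part of these markers in the result was not tested.

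**Figure D3:**
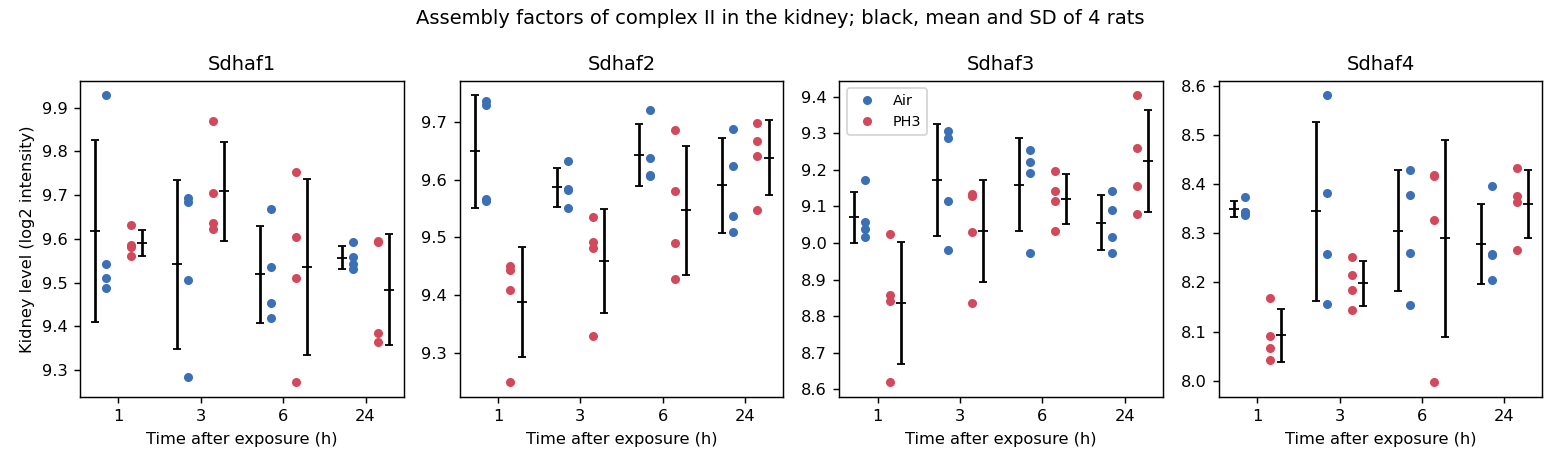
Kidney log2 levels (y axis) of the 4 complex II assembly factors by hours after exposure (x axis); a dot is 1 rat, blue for Air and red for PH3, with the mean and SD of 4 rats in black. At 1 h the PH3 dots of Sdhaf2 (9.25 to 9.45) and of Sdhaf4 (8.04 to 8.17) lie below the Air dots, while those of Sdhaf1 lie among them.

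In heart at 1 h the complex II genes were also on the low side, without a call. All 4 assembly factors and all 4 subunits had negative differences, with medians of -0.23 and -0.16. Of all 77 members 54 were negative, where 50.7% of all probe sets and 70.7% of the brightest 10% were. Sdhaf4 read 8.59, 8.97, 9.01 and 9.04 in Air and 8.17, 8.48, 8.72 and 8.78 in PH3 hearts (-0.37 ± 0.186, SE, adjusted p = 0.445), so the groups overlapped. Sdhaf3 had a difference of -0.39 with a standard error of 0.321. The members with no overlap in heart at 1 h were Uqcrc2, a core protein of complex III, at -0.20 and Ndufa4 at -0.09, 2 of 77 where 4.09% of all probe sets lay fully below Air. The brightest 10% of heart probe sets had a median of -0.07 there. With array medians subtracted the member median was -0.0003, with 39 of 77 members negative, in place of -0.05.

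Ndufs8 is a complex I subunit that holds a pair of iron-sulfur clusters on the electron path toward ubiquinone. In lung at 3 h it read 7.96, 8.07, 8.10 and 8.41 in Air and 8.39, 8.46, 8.47 and 8.72 in PH3 rats. The highest Air lung reached into the PH3 range. The difference was 0.38 ± 0.12 (SE, n = 4 and 4, adjusted p = 0.0492), just inside the threshold. A 3′ index, the excess of 3′ over 5′ control probes for Gapdh and beta-actin that grows as RNA breaks, was 0.45 ± 0.08 in these Air lungs and 0.18 ± 0.07 in the PH3 lungs (SD, n = 4 and 4, exact permutation p = 0.0286, adjusted p = 0.686 over 24 comparisons). That unadjusted p is the smallest that 4 against 4 arrays can give. A lone comparison among 24 could therefore not pass after adjustment, however far apart its groups. With that index as a covariate the Ndufs8 difference was 0.13 (adjusted p = 0.835). Index and exposure went together in these lungs, so that fit cannot tell them apart. Its median member standard error at 3 h was 0.157, against 0.117 without the index. The call was also lost with array medians subtracted (adjusted p = 0.0599), with only that time's arrays (adjusted p = 0.119) and with the rat as a replicate block (adjusted p = 0.163). Leukocyte markers had positive differences in these lungs for 6 of 6, with 4 called, among them S100a8 at 1.41, and their part in the result was not tested. Leaving out the Air rat Rat365, Rat370 or Rat400 or the PH3 rat Rat359, Rat361 or Rat368 ended the call, with adjusted p from 0.0794 to 0.153.

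Other members in lung at 3 h missed the threshold. Atp5f1a, the alpha subunit of the ATP synthase head, read 10.16, 10.44, 10.50 and 10.58 in Air and 10.60, 10.70, 10.78 and 10.85 in PH3 rats (0.31 ± 0.116, SE, adjusted p = 0.0858). Ndufaf3, a complex I assembly factor, read 7.79 to 7.96 against 8.02 to 8.10 (adjusted p = 0.0959). With Ndufa8 and Ndufa5 these make 4 members fully above Air, where 7.8% of all probe sets were.

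Ndufaf4, an assembly factor of complex I, came nearest to the threshold among members that did not pass. In kidney at 3 h it read 8.49, 8.56, 8.61 and 8.78 in Air and 8.92, 8.95, 9.06 and 9.12 in PH3 rats (0.40 ± 0.097, SE, adjusted p = 0.0694). At 6 h in kidney the Air values were 8.28, 8.47, 8.72 and 8.81 and the PH3 values 8.82, 8.84, 8.97 and 9.05 (0.35, adjusted p = 0.381). At both times all PH3 kidneys lay above all Air kidneys, where 2.87% and 1.77% of all probe sets did. In lung at 1 h Ndufaf4 read 6.79, 6.90, 7.04 and 7.22 in Air and 7.18, 7.29, 7.45 and 7.50 in PH3 rats (0.37 ± 0.11, SE, adjusted p = 0.052), and the groups overlapped. It passed there with array medians subtracted (adjusted p = 0.0414), and in kidney at 3 h among the brighter probe sets alone (adjusted p = 0.0396). In lung at 3 h its difference was instead -0.24 and did not pass.

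In brain stem at 24 h most members read slightly lower in PH3 than in Air rats, and no single member was called. There 72 of 77 differences were negative, with a median of -0.11, where 48.7% of all probe sets were negative with a median near 0. Over the brightest 10% of probe sets 56.5% were negative, with a median of -0.01. By role, all 15 ATP synthase subunits were negative (median -0.10), 30 of 32 complex I subunits (-0.10), 7 of 8 complex III subunits (-0.09), 6 of 7 complex IV subunits (-0.15) and all 4 complex II subunits (-0.10). At an unadjusted p under 0.05 there were 21 members, against 7.79% of all probe sets.

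Atp5mg, a membrane subunit of ATP synthase, had the smallest p. Its values were 11.66, 11.70, 11.75 and 12.02 in Air and 11.27, 11.45, 11.59 and 11.65 in PH3 rats (-0.29 ± 0.080, SE, adjusted p = 0.391). Uqcrfs1, the Rieske iron-sulfur protein of complex III, read 11.11, 11.13, 11.16 and 11.28 against 10.85, 10.87, 10.94 and 10.94 (-0.27, adjusted p = 0.435). These groups did not overlap for either gene. Uqcr11, Cox6b1 and Ndufa4 also lay fully below Air, with differences of -0.18, -0.16 and -0.16, which makes 5 members where 1.19% of all probe sets did. Ndufs8 (-0.21), Cox7c (-0.17) and Cox5b (-0.15) were among the 8 smallest p values too, with groups that overlapped.

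The reference for this comparison moved as well. In Air brain stem the 4 times differed for 9 members by limma's F test, against 7.8% of all probe sets, and the 24 h group was the high one for Atp5mg (11.51, 11.47, 11.48 and 11.78 at 1, 3, 6 and 24 h, adjusted p = 0.0247) and for Uqcrfs1 (10.87, 10.88, 10.95 and 11.17). The member median per array was 10.83 to 11.00 in the Air and 10.77 to 10.83 in the PH3 brain stems at 24 h. The mean of 4 astrocyte markers was 9.54 to 9.67 in Air and 9.57 to 10.07 in PH3 rats, and across the 32 brain stem arrays, with group means removed, it had a correlation of -0.59 with the member median (Spearman -0.62, -0.61 without the 2 farthest arrays). The 3′ index was 0.41 ± 0.05 against 0.51 ± 0.06 (SD, n = 4 and 4, exact permutation p = 0.0857). Brown fat markers reached a mean of 5.75 in Air and 3.59 in PH3 brain stems at 24 h. Their member Ucp1 reached 7.24 and 2.93, and leukocyte markers 7.004 and 5.94. The lowest Air array lay within or below the PH3 range for each of these. Cardiac muscle markers ran from 3.77 to 3.996 in Air and 3.55 to 3.75 in PH3 rats, all under the median probe set (5.33). Red cell, neuron, oligodendrocyte and endothelium markers overlapped. The part of these measures in the shift was not tested. Leaving out 1 array at a time gave medians from -0.14 to -0.07.

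**Figure D4:**
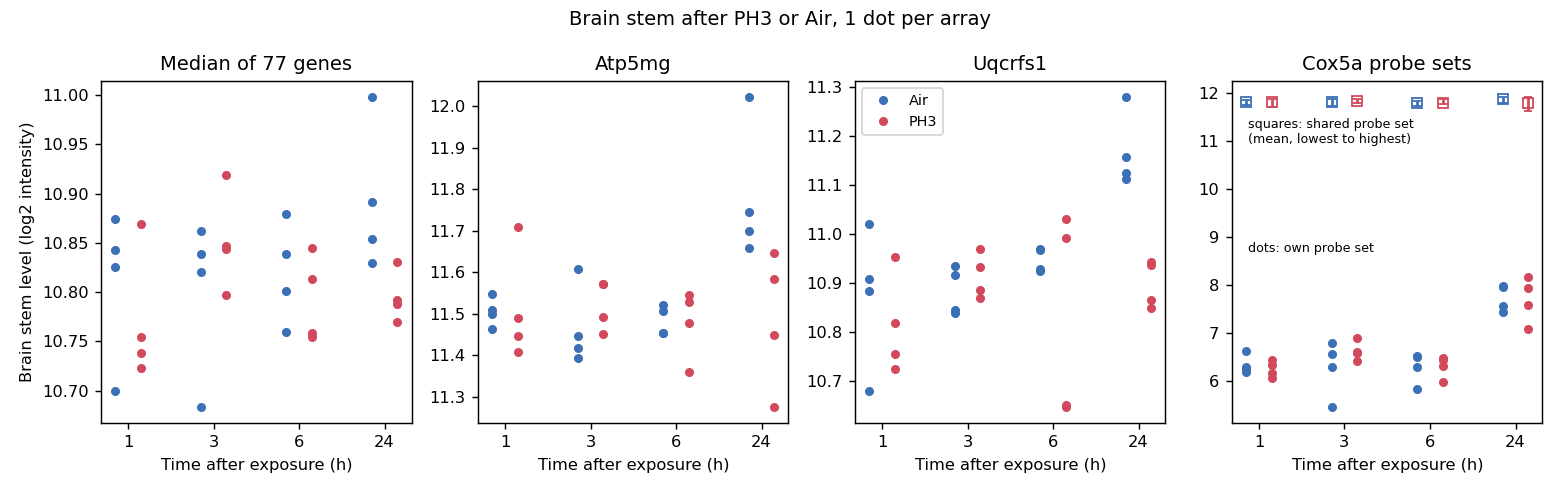
Brain stem log2 levels (y axis) by hours after exposure (x axis) for the median of the 77 members, Atp5mg, Uqcrfs1 and the probe sets of Cox5a; a dot is 1 array, blue for Air and red for PH3, and squares are the mean of a shared Cox5a probe set with its lowest and highest array. At 24 h the PH3 dots of Atp5mg and Uqcrfs1 lie below the Air dots, which stand above those of earlier times, and the Cox5a dots are higher at 24 h in both exposures while the squares are level.

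In the olfactory bulb most differences were also negative at 6 and 24 h, with 0 called by limma and 7 and 5 members at an unadjusted p under 0.05. At 6 h 72 were negative (median -0.08), where 56.2% of all probe sets and 72.6% of the brightest 10% were. The PH3 animal Rat381 stood apart: its member median was 10.41, against 10.72 to 10.76 in the other PH3 bulbs, and leaving out 1 array at a time moved the median of differences between -0.11 and -0.02, the latter without that animal. Its mean of cardiac muscle markers was 5.28, against 4.01 to 4.14 in the other PH3 bulbs. Marker means of blood cells differed between the groups at 6 h without overlap: red cell markers ran from 3.66 to 3.93 in Air and 4.09 to 4.41 in PH3 bulbs, and leukocyte markers from 4.92 to 5.33 and 5.36 to 5.71. The part of these markers in the result was not tested. At 24 h 63 were negative (median -0.06), where 52% of all probe sets and 59.7% of the brightest 10% were. Of the members, 9 lay fully below Air, where 2.02% of all probe sets did. These 9 were Ndufb8 (-0.23), Atp5mc1 (-0.22), Ndufs8 (-0.16), Atp5f1d (-0.14), Uqcrfs1 (-0.14), Ndufaf8 (-0.13), Uqcrc2 (-0.12), Sdhb (-0.11) and Cox5a, each with an adjusted p that rounds to 1. Per-array member medians were 10.79 to 10.86 in Air and 10.63 to 10.70 in PH3 bulbs. At 1 h Ndufb5 of complex I read 11.05, 11.10, 11.13, 11.16 and 11.23 in Air and 10.80, 10.96, 10.96 and 11.01 in PH3 bulbs (-0.20, adjusted p = 0.945).

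Kidney at 24 h showed the opposite sign. There 59 members were positive (median 0.07), where 50.9% of all probe sets and 40.7% of the brightest 10% were negative. Per-array member medians overlapped, at 11.10 to 11.28 in Air and 11.14 to 11.36 in PH3 kidneys. Of the members, 9 lay fully above Air with 0 called (7 at an unadjusted p under 0.05), where 2.47% of all probe sets did. Ndufa6 of complex I had the largest of these differences: it read 10.71, 10.78, 10.83 and 10.89 in Air and 10.95, 10.97, 11.17 and 11.23 in PH3 rats (0.28 ± 0.083, SE, adjusted p = 0.668). The others were Ndufb6 (0.14), Cyc1 (0.13), the cytochrome c1 of complex III, Sdhb (0.12), Uqcrc2 (0.12), Ndufv2 (0.11), Ndufab1 (0.10), Atp5mc3 (0.10) and Uqcrc1 (0.08). With array medians subtracted the median fell to 0.03 and 25 members were negative. Sdhb and Uqcrc2 were thus fully above Air in kidney and fully below Air in olfactory bulb at the same time, a contrast between tissues that was not tested.

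Of complex IV, the known site of phosphine inhibition, none of the 7 members was called in any tissue or time. The share of all probe sets called ran from 0% to 9.89%, the highest in lung at 3 h. These 7 members include Ndufa4l2, the paralog of Ndufa4, and Cox5a, from whose probe set no change is read. The tissue isoform pairs, Cox6c and the subunits encoded in the mitochondrion are outside the set, so the result does not cover the whole complex. Cox6b1 in brain stem at 24 h read 11.49, 11.49, 11.60 and 11.65 in Air and 11.33, 11.34, 11.42 and 11.48 in PH3 rats. Ndufa4l2 in heart at 3 h read 6.49, 6.68, 6.69 and 6.90 in Air and 5.41, 5.84, 6.20 and 7.09 in PH3 rats (-0.55 ± 0.24, SE, adjusted p = 0.99), and 1 PH3 heart was the highest of all. Cox5a in heart at 24 h read 7.66, 8.41, 9.16 and 9.33 against 7.47, 7.54, 8.07 and 8.23 (-0.81 ± 0.34, SE, adjusted p = 0.67), also with overlap. These were the only differences beyond 0.5 outside blood.

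Cox5a needs care, since its own probe set behaved unlike one it shares. In brain stem the probe set that names only Cox5a averaged 6.34, 6.28, 6.30 and 7.74 in Air and 6.26, 6.63, 6.32 and 7.70 in PH3 rats at 1, 3, 6 and 24 h. A probe set annotated to both Cox5a and LOC100361008 stayed between 11.79 and 11.87 in the Air groups. In olfactory bulb the Cox5a probe set averaged 7.13, 7.09, 5.65 and 5.86 in Air, while the shared one stayed between 11.87 and 11.94. At 24 h in olfactory bulb the Cox5a probe set read 5.58, 5.69, 6.06 and 6.10 in Air and 5.41, 5.47, 5.48 and 5.51 in PH3 rats. These probe sets give different accounts of Cox5a, and no change in it is read from them.

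Blood gave the widest spread and no call (8, 1, 0 and 7 members at an unadjusted p under 0.05 at 1, 3, 6 and 24 h). At 1 h 5 members lay fully below Air, where 2.46% of all probe sets did. Ndufb5 read 8.30, 8.34, 8.71 and 8.96 in Air and 7.43, 7.77, 8.22 and 8.27 in PH3 rats (-0.66 ± 0.258, SE, adjusted p = 0.465). Ndufb10, likewise a membrane-arm subunit of complex I, read 9.14, 9.24, 9.24 and 9.44 in Air and 8.20, 8.59 and 8.82 in 3 PH3 rats, with the other one also below the lowest Air rat (-0.61, adjusted p = 0.401). Atp5mc1 (-0.48), Atp5f1d (-0.36) and Ndufa9 (-0.31) were the others. At 24 h Ndufa12 read 10.52, 10.93 and 10.98 in 3 Air rats and 11.13, 11.18, 11.33 and 11.46 in PH3 rats (0.46, adjusted p = 0.765), and Cox6b1 (0.30) and Atp5mf (0.20) were also fully above Air, where 2.77% of all probe sets were. The largest difference of all, Atp5mk at 24 h (-1.12), came with PH3 values of 5.71, 8.02, 8.71 and 9.78 around Air values of 8.58, 9.04 and 9.91, so the groups overlapped. Across the 31 blood arrays, group means removed, the member median had a correlation of -0.82 with the array median (Spearman -0.77, -0.73 without the 2 farthest) and of 0.64 with the leukocyte marker mean (Spearman 0.67, 0.72 without the 2 farthest). Lung epithelium markers had -0.69 (Spearman -0.70, -0.62 without), and cardiac muscle and neuron markers each -0.49. The remaining marker lists ran from -0.39 (brown fat) to 0.27 (red cell). What lies behind these relations was not tested.

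In lung the members moved with markers of other tissues from array to array. The member median of the 32 lungs ran from 9.85 to 10.45, while the mean of the cardiac muscle markers ran from 5.95 to 10.09 and that of the brown fat markers from 3.96 to 8.53. With group means removed, the member median had a correlation of 0.83 with the cardiac muscle markers (Spearman 0.81, 0.77 without the 2 farthest arrays) and of 0.68 with the brown fat markers (Spearman 0.64, 0.68 without). Neuron markers had 0.69 (Spearman 0.53, 0.47 without), oligodendrocyte markers 0.68 (0.57, 0.59) and skeletal muscle markers 0.51 (0.43, 0.31). The remaining marker lists ran from -0.35 (endothelium) to 0.17 (kidney tubule). Neuron and oligodendrocyte means reached only 4.93 and 5.21, under the median probe set of the lung arrays (5.31). The brown fat marker Elovl3 (2.81 in Air lungs) lay under it too, and Cidea was higher in Air heart (10.73) than in Air lung (8.20). For single members, 66 of 77 had a correlation above 0.5 with the cardiac muscle markers and 56 with the brown fat markers, and Ndufa4l2 had -0.64 with the cardiac muscle markers. The highest lungs were the Air animal Rat340 at 24 h (10.45), the PH3 animal Rat357 at 1 h (10.38) and the Air animal Rat355 at 3 h (10.27). They occur in both exposures. These relations across arrays are descriptions, drawn from 78 computed (13 measures in 6 tissues) and carry no test, since the set was proposed with earlier results of these data known.

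The member median differences were 0.07, 0.06, -0.04 and -0.05 at 1, 3, 6 and 24 h. With the 3′ index as a covariate the 3 h median turned to -0.08, with 61 of 77 members negative in place of 26. Index and exposure went together in the 3 h lungs, so that fit cannot tell them apart. A fit with both marker means as covariates was added after the markers were seen. There the medians were 0.02, 0.04, -0.08 and -0.09, with 69 and 72 members negative at 6 and 24 h. In the fit with marker means Ndufs8 (0.37, adjusted p = 0.0193) and Atp5f1a (0.29, adjusted p = 0.0432) passed at 3 h.

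No member's phosphine difference passed limma's F test between the 4 times in any tissue (1 to 6 members a tissue at an unadjusted p under 0.05), where 4.82% of all probe sets did in lung, 0.49% in kidney, 0.116% in heart, 0.0709% in brain stem and 0% in blood and olfactory bulb. Air levels did vary with time for some members besides the brain stem ones. In lung 12 members passed, against 12.2% of all probe sets, with Ndufb2, Ndufaf3, Ndufs8, Ndufa6, Ndufa7 and Ndufa11 having the smallest p, and in olfactory bulb Cox5a, Ndufaf4 and Ndufv3 passed (1.39%). The other brain stem members were Atp5f1b, Cox5a, Cox7b, Ndufb3, Ndufc2, Sdhaf3 and Ndufa4l2. No member passed in blood, heart or kidney (1, 11 and 1 at an unadjusted p under 0.05), where 0%, 0.548% and 0.00322% of all probe sets did.

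Of the genes that serve the chain from outside, limma called some in lung and none in the other tissues; differences between tissues were not tested, and the lists were chosen with earlier results of these data known. Ppargc1a, the coactivator that drives mitochondrial biogenesis, rose at 1 h: its values spanned 4.16 to 4.79 in Air and 5.09 to 6.40 in PH3 lungs, a difference of 1.49 ± 0.24 (SE, n = 4 and 4, adjusted p = 0.000204). It was 1 of 14 measured biogenesis genes, of which Pprc1, a related coactivator, fell at 3 h by 0.39 (adjusted p = 0.0426). In lung 4.24% of all probe sets passed at 1 h and 9.89% at 3 h. None of the other tissues or times called Ppargc1a. Of 14 cytochrome oxidase assembly genes, Coa7 rose by 0.53 at 1 h (adjusted p = 0.0243), and of 9 carriers and pores, the phosphate carrier Slc25a3 rose by 0.32 at 3 h (adjusted p = 0.00694). The 1 h Air means of Ppargc1a (4.36) and Coa7 (4.47) lay under the median probe set of the lung arrays (5.31). Whether these Air values are above background was not tested. All calls at 3 h stand beside the 3′ index that differed between those lungs: with it as a covariate 4 of 31042 probe sets passed, in place of 3071. Index and exposure went together in those lungs, so that fit cannot tell them apart. The part of the index in the calls of single listed genes was not tested.

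Of 73 mitochondrial ribosomal proteins, 8 rose at 3 h in lung and none fell, with a median of 0.06. That is 11.0% of the list, where 5.86% of all probe sets rose and 4.03% fell, 9.89% in either direction. The share of all probe sets in either direction was 0.0129% once the fit held the 3′ index, which went with exposure in these lungs. Mrps18c (0.55) and Mrpl30 (0.54) had the largest differences, and at 1 h Mrps17 fell by 0.22. None of 11 citric acid cycle genes or 8 other genes that feed electrons to ubiquinone passed limma's test in any tissue or time, with 15 of 264 and 18 of 192 values at an unadjusted p under 0.05. In brain stem at 24 h, 63 of the 73 ribosomal proteins were negative (median -0.08), as were 6 of the 11 citric acid cycle genes (median -0.02).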

How the data were processed

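Each sample was hybridised to 1 Affymetrix rat array after a 3′ in vitro transcription kit had made biotin-labelled RNA, per the labels' protocols. The authors' deposited values are log2 intensities, made by RMA and Partek, per the submitters' processing notes. Versions and settings were not given in the sources used here. Normalization by RMA makes arrays alike, which can hide a shift shared by all genes. The table holds 31139 probe sets; 97 control probe sets were left out and 31042 tested. Of these, 19062 named 1 gene, 573 several and 11407 none, and 12 probe sets shared with another gene were not members. A gene was read by its brightest probe set in the tissue, or for levels across tissues by 1 probe set throughout; 68 members had 1 probe set, 8 had 2 and 1 had 3. Symbols of all 77 matched RefSeq.

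For each tissue, limma 3.58.1 (R 4.3.3; summaries in Python 3.11.15) fitted the 8 groups to the deposited log2 values, tested PH3 minus Air two-sided at each time, with Benjamini-Hochberg adjustment over all probe sets, and called an adjusted p under 0.05. F tests asked whether Air levels, or differences, varied between times. Air levels between tissues were fitted with the rat as a random block. That test was planned only if arrays of all tissues shared 1 distribution; they do not (array medians differ by tissue), so it stands as a comparison added after seeing the data, with array medians subtracted beside it. Scripts were tested on simulated data.

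Samples were grouped by the labels' tissue, exposure and time. Rat numbers pair tissues of the same animal, never PH3 with Air; the block fit over all 192 arrays gave a consensus correlation of 0.0168. The 3′ index is the mean excess of 3′ over 5′ control probe sets for Gapdh and beta-actin. The number of arrays limits the precision. In the fit per tissue, limma's p-values set a mean difference against the spread between arrays of a group, pooled over the 8 groups. The alternatives were other groups in the fit, the rat block, array medians subtracted, the brighter probe sets alone, the 3′ index as a covariate, the mean of a gene's probe sets, 1 rat left out, and, added after seeing the data, marker covariates in lung.

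The members and lists were chosen with earlier results of these data known. Genes were named by a written rule: called members; where none was called, up to 3 with the largest difference and no overlap; the 8 widest and 4 narrowest tissue ranges; Ndufa4, Ndufa4l2 and the c-ring genes; in brain stem at 24 h the 8 smallest p values; up to 6 members per F test; and up to 4 called genes per list. A part of the rule that names the brightest and dimmest member of a complex was not used, since levels of different probe sets cannot be compared. Not every member that the rule picks is described. Left out were, for example, Atp5me in heart at 24 h (-0.27), Sdhaf4 in olfactory bulb at 6 h (-0.23) and Ndufa11 in blood at 3 h (-0.43). Each lay fully below Air and was not called. Some comparisons instead list all members without overlap, beyond the rule's 3. Other members named for their small group or role were chosen after their values were seen.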

Additional observations from a re-analysis of the deposited data

Results flagged for a closer look

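Single arrays stood apart in the members' median level in 9 of 47 groups of 4 or 5 arrays, each by a gap to the nearest array that takes up most of the group's range (Dixon's test); chance flags about 1 in 20 groups. The low arrays were PH3 blood at 3 h, Rat399 (8.93, others 9.24 to 9.26), Air heart at 6 h, Rat382 (11.82), PH3 heart at 24 h, Rat333 (11.85, others 11.93 to 11.94), PH3 kidney at 6 h, Rat387 (11.05), Air olfactory bulb at 3 h, Rat400 (10.66), and PH3 olfactory bulb at 6 h, Rat381 (10.41). The high arrays were 3 lungs: Air at 1 h, Rat354 (10.06), Air at 3 h, Rat355 (10.27, others 9.85), and PH3 at 6 h, Rat391 (10.18). Without Rat381 the median difference in olfactory bulb at 6 h was -0.02. Without Air Rat355 the lung at 3 h called Ndufs8 (0.47) and Atp5if1 (0.37).

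For 3 members all PH3 arrays lay above Air in 1 tissue and below Air in another at the same time, and the difference between tissues was not tested. Cox6b1 at 24 h was 0.30 in blood and -0.16 in brain stem. Sdhb at 24 h was 0.12 in kidney and -0.11 in olfactory bulb. Uqcrc2 at 24 h was 0.12 in kidney and -0.12 in olfactory bulb.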

How the results depend on the processing

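Rats numbered alike are the same animal in different tissues, so the replicate block joined tissues and not exposures. With the block over all arrays, blood called 17, 2, 1 and 28 members at 1, 3, 6 and 24 h where the fit within blood called 0; that fit shares 1 spread over all tissues, its median standard error in blood was 0.128 to 0.138 in place of 0.248 to 0.268, and it called 19.4%, 6.4%, 10.7% and 18.3% of all probe sets there. With the block kidney at 1 h and lung at 3 h went from 1 to 0 members, and the block changed no other call. Fitting the groups of 1 time alone gave 0 in kidney at 1 h and in lung at 3 h. Array medians subtracted gave 1 member in lung at 1 h and 0 at 3 h. The brighter probe sets alone gave 1 in kidney at 3 h and 1 in lung at 1 h. The 3′ index as a covariate gave 0 in lung at 3 h, where index and exposure went together. Marker covariates there, chosen after seeing the data, gave 2. Leaving out 1 rat gave 0 to 1 in kidney at 1 h, 0 to 1 in lung at 1 h, 0 to 2 in lung at 3 h and 0 in the other 21 comparisons.

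With the 3′ index as a covariate, Air levels differed between times for 5 members in brain stem in place of 9, 2 in heart in place of 0, 0 in lung in place of 12 and 1 in olfactory bulb in place of 3. All 124 settings and 192 single-rat omissions moved the median difference by less than the spread of the members' median between arrays of a group. That spread was 0.192 in blood, 0.142 in lung, 0.075 in kidney and 0.056 in heart. Every median difference in those tissues was smaller, so it could vanish and still meet this bound. Leaving out 1 rat changed the sign in some comparisons, for example in lung at 1 h (-0.02 to 0.15) and at 24 h (-0.12 to 0.02). Air levels between tissues differed for 77 members in all 5 settings, and no setting called a member whose difference varied between times. Of the values of single named genes under other settings, 9 newly passed the threshold, 6 lost it and the others kept their side. With all rats kept, the median difference changed sign in 4 cases: lung at 3 h went from 0.06 to -0.08 with the 3′ index, while with array medians subtracted blood and olfactory bulb at 3 h turned positive and heart at 24 h negative, each then within 0.01 of 0. Air levels of some members also changed order between tissues with array medians subtracted, for example Atp5if1 in brain stem minus heart (0.08 to -0.20). The cause of these moves was not tested.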
